A study of Homo sapiens with 4 samples.

Results

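Peaks of PRMT5 RIP were followed in 9 genes of the NF-κB and NFAT pathways, which were chosen by name: NFKB1, NFKB2, RELA, NFKBIA, MAP3K14 and MALT1 for NF-κB, and NFATC1, NFATC2 and NFATC3 for NFAT. Of these genes, 7 carried peaks, with 18 of the 18993 peaks in the authors' list, which covers 8478 gene identifiers. MALT1 and NFATC2 had 0 peaks. Each peak was given to a gene through its Ensembl identifier, which was named by the study's supplementary peak table for 3 genes and by the gene under the peak on the same strand (GRCh38) for 4. The RNA came from Jurkat, a human T cell line derived from a leukemia. The cells had been given PHA, a plant lectin that activates T cells, for 48 hours and were then crosslinked with UV light (264 nm at 400 mJ on the sample labels). All 4 libraries shared this treatment. In 2 of them labelled PRMT5, RNA was recovered by a FLAG immunoprecipitation (PRMT5 RIP), with no construct named, and the other 2 are the input. An immunoprecipitation without PRMT5 was not analysed here. The list holds 1 pooled RPM value per peak for each kind of library (a read count scaled to library size, called RIP RPM and input RPM in the following). From these pooled values, a spread between replicates and a test between groups cannot be given, nor can values per library. The p-values and FDR of the authors' caller, which the list also holds, were not used. The read depth is unknown, and the error printed here is only the range that rounding of RPM to 0.01 allows. As a check of the cell type, 11 of 12 markers chosen for Jurkat T cells had peaks, among them CD3D with 417 RPM in input. PTPRC (CD45) had none. Of 8 markers of other cell types, 1 had peaks, the B cell gene CD79A with 21.9 RPM in input. A marker without a peak may still be expressed, since the list holds only regions kept by the authors' caller.

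NF-κB factors are dimers of Rel proteins such as p65 (RELA), p50 (cut from the NFKB1 product) and p52 (cut from the NFKB2 product). In resting cells IκBα, the product of NFKBIA, holds them in the cytoplasm. T cell receptor signals free them through the protease and scaffold MALT1 and the IκB kinases, while the kinase NIK, the product of MAP3K14, starts the noncanonical route that processes p100 to p52. The same receptor raises calcium, which activates the phosphatase calcineurin. Calcineurin dephosphorylates the NFAT proteins, which then enter the nucleus and switch on cytokine genes with NF-κB and AP-1.

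The sequences shown first lie in peaks that began within the 50 bases after an annotated start of a gene. In 3 member genes a peak lay partly within the 50 bases that follow an annotated start (RefSeq, GRCh38.p14), and the last 30 of those bases that a peak covers, or 21 in NFATC1, are given 5′ to 3′ on the strand of the gene. The first lies at chr14:35404700-35404729 on the minus strand, the next at chr17:45316971-45317000 on the minus strand and the last at chr18:79400328-79400348 on the plus strand.
NFKBIA: cccgcccgccagcgccccagcgaggaagca
MAP3K14: agcgcaacactcgcttggttggggagatcg
NFATC1, second annotated start: cgggagaaccgaacccctggc
The share of G and C was 80% in NFKBIA, 60% in MAP3K14 and 71.4% in NFATC1. The median over the 50 bases after all 35116 annotated starts was 60%, and over the 15 starts of the 9 genes it was 70%.

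The NFKBIA peak began 9 nt after the annotated start, directly beside the promoter. That promoter is printed because NFKBIA is a classic target gene of NF-κB and its resynthesis helps to end the response. The 250 bases before the start lie at chr14:35404750-35404999 on the minus strand, and capitals mark the match to the κB consensus.
NFKBIA promoter: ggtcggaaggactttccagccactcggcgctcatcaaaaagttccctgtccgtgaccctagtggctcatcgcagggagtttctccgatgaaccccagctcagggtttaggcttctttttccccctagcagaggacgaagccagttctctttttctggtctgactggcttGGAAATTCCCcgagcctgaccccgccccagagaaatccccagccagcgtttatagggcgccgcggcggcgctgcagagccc
The κB consensus was searched on both strands of windows from 250 bases before to 50 bases after each annotated start. A match was found for 4 of the 9 genes, NFKBIA, NFKB1, NFKB2 and NFATC1, and in 13.3% of all 27305 genes with a window. By window, 5 of 15 member windows and 11.3% of all 35116 windows held it. The match of NFKB1 (chr4:102501300-102501329, plus strand) and 2 of those of NFKB2 (chr10:102394461-102394490 and chr10:102395674-102395703, plus strand) are shown with 10 bases on each side.
NFKB1: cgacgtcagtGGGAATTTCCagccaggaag
NFKB2, second annotated start: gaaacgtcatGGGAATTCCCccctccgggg
NFKB2, last annotated start: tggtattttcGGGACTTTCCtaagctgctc
A match says only that these letters are present, and no binding to DNA was measured in these libraries. A window with several matches, as in NFKB2, was counted once.

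NFKBIA (ENSG00000100906.12), the inhibitor of the pathway, had a single peak of 602 nt at chr14:35404139-35404740, with a RIP RPM of 5.41 and an input RPM of 1.59. The ratio was 3.40 (3.39 to 3.42 by rounding), higher than in 78.2% of all peaks. It was the only member peak with at least 0.5 RPM in input whose RIP RPM was at least 2 times the input RPM. The peak covered the first 18.8% of the gene, which is 3237 bases long, and no peak lay in the remainder.

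Among the Rel family genes, NFKB1 stood highest and RELA lowest. NFKB1 (ENSG00000109320.14) had 1 peak of 75 nt at chr4:102501530-102501604, with a RIP RPM of 0.59 and an input RPM of 0.02. The ratio was 29.5, and 99.8% of all peaks in the list lay lower. It rests on an input at the bottom of the scale, where only 0.463% of peaks were lower, and rounding alone allows 23.4 to 39.7. On the log2 scale the ratio was 4.32 with 0.01 added to both RPM values, 2.52 with 0.1 and 0.64 with 1, so its size depends on the pseudocount.

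NFKB2 (ENSG00000077150.21) had 2 peaks on chromosome 10, and both lay far inside the gene. The peak at chr10:102400675-102400749 had a RIP RPM of 0.43 and an input RPM of 0.09, a ratio of 4.78 (4.47 to 5.12 by rounding). The peak at chr10:102401277-102401493 had 0.72 RPM against 0.23 RPM, a ratio of 3.13. Both were past 2-fold, and the lower ratio belonged to the peak with more reads.

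RELA (ENSG00000173039.20), the gene of the main activating subunit, had 4 peaks on chromosome 11, minus strand, and was the best covered NF-κB gene, with 12.4 RPM in input summed over its peaks. From the 5′ end, the peak at chr11:65661750-65662860 had a RIP RPM of 9.49 and an input RPM of 6.97, a ratio of 1.36. The next, at chr11:65658317-65658734, had 4.93 RPM against 3.95 RPM, a ratio of 1.25 and the lowest of all member peaks. The signal of RELA was thus close to input where coverage was highest. At chr11:65654424-65654573 the values were 2.13 RPM and 1.15 RPM, a ratio of 1.85. The last peak, at chr11:65654299-65654373, had 0.67 RPM against 0.32 RPM and was the only one of the gene past 2-fold, with 2.09 (2.05 to 2.14 by rounding). Summed over the gene, the RIP RPM was 17.2 and the input RPM 12.4, a ratio of 1.39.

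MAP3K14 (ENSG00000006062.18), which codes for NIK, had 2 peaks on chromosome 17, minus strand, and both were past 4-fold. The peak at chr17:45312418-45317014 was 4597 nt wide and began 6 nt after the annotated start, with a RIP RPM of 0.52 and an input RPM of 0.11, a ratio of 4.73 (4.48 to 5 by rounding). The peak at chr17:45290635-45290784 had 0.91 RPM against 0.18 RPM, a ratio of 5.06 (4.89 to 5.23 by rounding). A gap of 21633 nt separated them. Both peaks had little input, and the narrow one, with 1.20 RPM per kb in input, was denser than the wide one, with 0.024 RPM per kb.

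**Figure D1:**
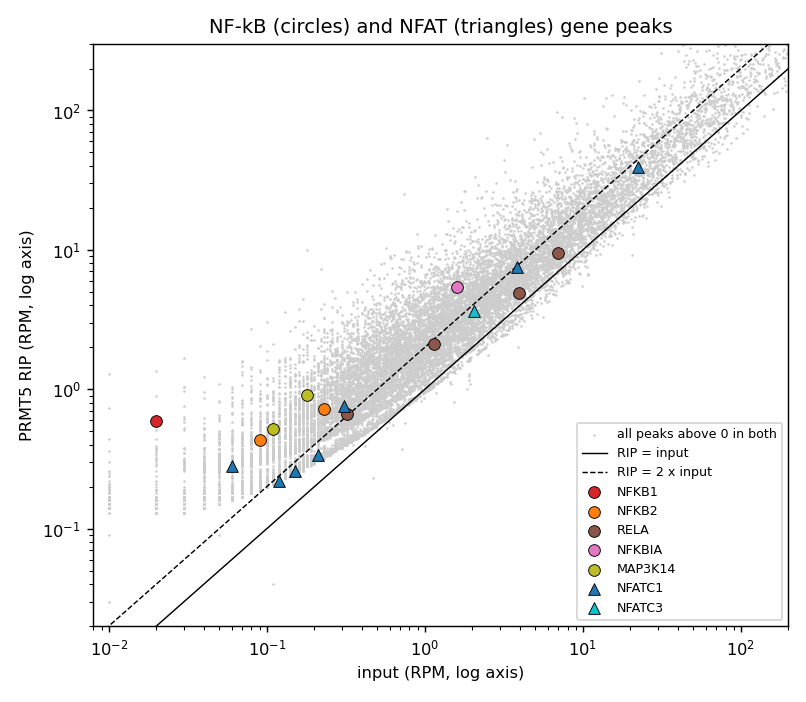
Pooled RIP RPM (vertical, log axis) against input (horizontal, log axis) for the 18 member peaks, coloured by gene, over the peaks of the list with both values above 0 in grey. The solid line marks equal RPM and the dashed line 2 times the input, and the axes end below the highest peaks of the list. NFKB1 lies far to the left with 0.02 RPM in input, whereas 3 of the 4 RELA peaks and the wide NFATC1 peaks lie between the lines.

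NFATC1 (ENSG00000131196.18), which encodes the NFAT protein induced during T cell activation, had 7 peaks on chromosome 18, plus strand, the most of any member. Near the start of the gene, the peak at chr18:79396106-79396205 had a RIP RPM of 0.76 and an input RPM of 0.31, a ratio of 2.45 (2.40 to 2.51 by rounding). Directly after it, the peak at chr18:79396231-79396255 had 0.22 RPM against 0.12 RPM, a ratio of 1.83. The wide peak at chr18:79396331-79400277 had 0.34 RPM against 0.21 RPM, a ratio of 1.62. This peak ended 22 nt before the second annotated start of the gene, where shorter annotated transcripts begin.

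The highest ratio in NFATC1 came just after that second start. The peak at chr18:79400328-79400377, whose 5′ bases are printed above, had a RIP RPM of 0.28 and an input RPM of 0.06, a ratio of 4.67 (4.23 to 5.18 by rounding). It was followed after 100 nt by the strongest member peak of all, at chr18:79400478-79411425, with 39.2 RPM against 22.5 RPM and a ratio of 1.74. That peak was 10948 nt wide and held 80.7% of the gene's RIP RPM and 82.7% of its input RPM. The wide peak after the second start therefore carried most of the NFATC1 signal in peaks, with a ratio below 2. Where along its length the reads lay was not analysed.

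The remaining NFATC1 peaks lay after a gap of 22177 nt. At chr18:79433603-79451114, a peak of 17512 nt had a RIP RPM of 7.51 and an input RPM of 3.85, a ratio of 1.95, just under the 2-fold line. At chr18:79451714-79451738 the values were 0.26 RPM and 0.15 RPM, a ratio of 1.73. No NFATC1 peak reached beyond 41.8% of the gene. Summed over its peaks, the gene had a RIP RPM of 48.6 and an input RPM of 27.2, a ratio of 1.79. The 7 ratios were all above 1, in a list where only 3.84% of peaks had a RIP RPM below the input RPM.

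NFATC3 (ENSG00000072736.19), another calcineurin-regulated family member of T cells, had a single peak of 250 nt at chr16:68085444-68085693 on the plus strand. It held a RIP RPM of 3.64 and an input RPM of 2.05, a ratio of 1.78. Per length it was the densest member gene, with 8.20 RPM per kb in input, followed by RELA with 7.06 and NFKBIA with 2.64. These densities cover peaks only, over their full genomic width with any introns in it, and are no measure of the whole transcript.

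MALT1 (chr18:58671465-58754477), a protease that relays the T cell receptor signal to NF-κB, and NFATC2 (chr20:51386963-51562839), the NFAT protein already present in resting T cells, had no peak on either strand in the list analysed here. The list holds only regions kept by the authors' caller, and 18984 of its 18993 peaks had a RIP RPM of at least 0.13. The absence of a peak is therefore no measurement of the RNA, whose level outside peaks was not analysed here.

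**Figure D2:**
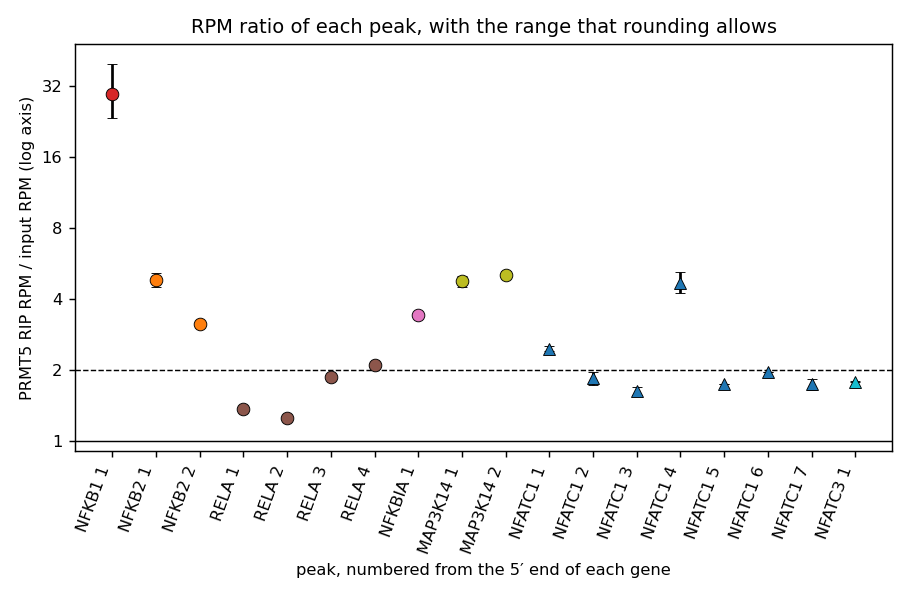
Ratio of PRMT5 RIP RPM to input RPM (log axis) for each of the 18 member peaks, numbered from the 5′ end of each gene. Circles are NF-κB genes, triangles NFAT genes, bars the range that rounding to 0.01 RPM allows, the dashed line a ratio of 2 and the solid line a ratio of 1. All member peaks lie above 1, from 1.25 in RELA to 29.5 in NFKB1, and only 3.84% of all peaks in the list lie below 1.

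Taking all member peaks, 9 of 18 were past 2-fold, with a RIP RPM 2 or more times the input RPM, against 56.6% of all peaks, and 5 were past 4-fold, against 17% of all peaks. The median log2 ratio of RPM, with a pseudocount of 0.01, was 1.00 for the members and 1.10 for the list. Without NFATC1, which holds 7 of the 18 peaks, 7 of 11 were past 2-fold and the median was 1.60. Of these 11 peaks, 6 had less than 0.5 RPM in input, where the median of all peaks was 1.44. Over the 7 genes, each taken at its median, the member median was 1.76. No such value was computed over the genes of the list. In no member peak was the RIP RPM below the input RPM, as it was in 3.84% of all peaks. The peaks nearest to the 2-fold line were RELA with 2.09 above it and NFATC1 with 1.95 below it.

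Member peaks past 2-fold were mostly those with little input. With at least 0.5 RPM in input, 1 of 7 member peaks was past 2-fold, against 44% of all such peaks. Below 0.5 RPM in input, 8 of 11 were, against 75.6%. The 7 peaks with more input came from 4 genes, and peaks of a gene share their RNA, so the contrast was not tested. At an input RPM of up to 0.06 the call nearly always follows from being in the list, whose peaks nearly all have a RIP RPM of at least 0.13. Above that input, as at the 5′ peak of NFKB2 with 0.09 RPM, a RIP RPM of 0.13 would fall short of 2-fold. There this level alone does not settle the call. With an input RPM of up to 0.09, 99.8% of all peaks were past 2-fold, and so were the 3 member peaks there, those of NFKB1, the 5′ peak of NFKB2 and the NFATC1 peak after its second start. In the full list, too, the median log2 ratio was lower at peaks with at least 0.5 RPM in input (0.89) than below (1.44). The member peaks with at least 0.5 RPM in input, called well covered, were those of RELA, NFATC1, NFATC3 and NFKBIA, and apart from NFKBIA they had ratios from 1.25 to 1.95.

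Split by branch, 7 of 10 peaks in NF-κB genes and 2 of 8 in NFAT genes were past 2-fold, beside 56.6% of the whole list. Where input held at least 0.5 RPM the counts were 1 of 4 and 0 of 3, and below it 6 of 6 and 2 of 5. The median log2 ratio was 1.68 for NF-κB and 0.82 for NFAT. The gene median of RELA, 0.66, was below those of NFATC1 and NFATC3, at 0.82 and 0.83. NFKBIA with 1.76, NFKB2 with 1.87, MAP3K14 with 2.21 and NFKB1 with 4.32 followed in ascending order. Because 7 of the 8 NFAT peaks belong to the single gene NFATC1 and peaks of a gene share their RNA, the split describes these peaks and was not tested.

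**Figure D3:**
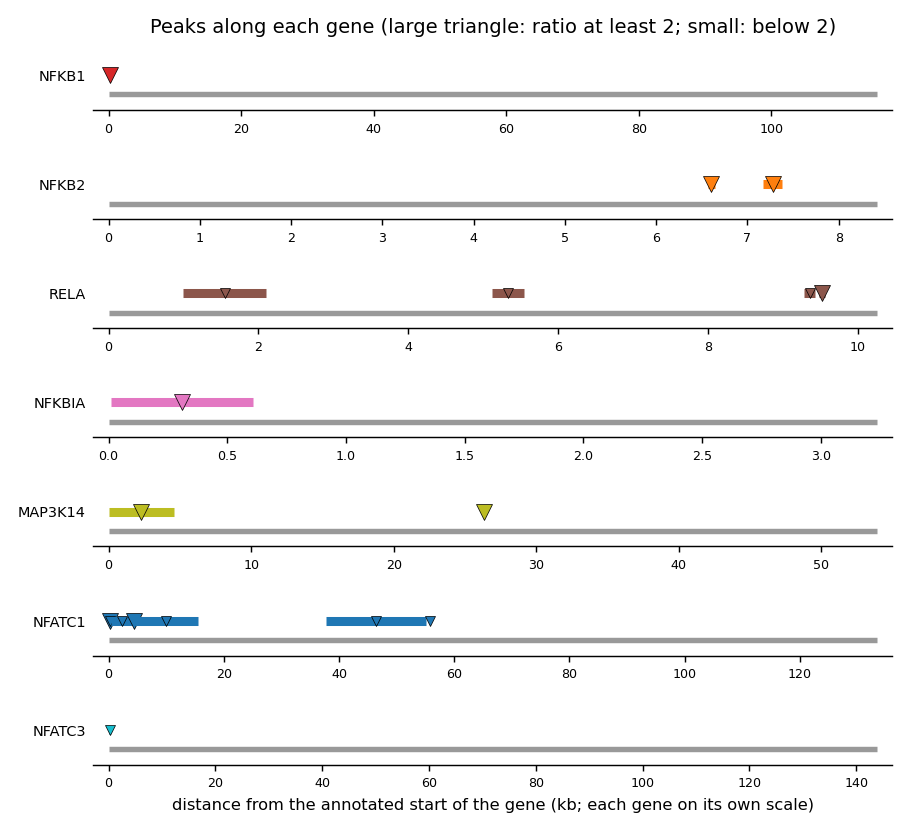
Peaks (coloured bars and triangles) along the 7 member genes with peaks (grey), as distance in kb from the annotated start on the strand of the gene, each gene on its own scale. Large triangles mark ratios of at least 2 and small triangles lower ratios. NFKB1, NFKBIA and NFATC3 have a single peak by the start, and NFKB2 has peaks near the 3′ end only.

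Along the genes, the peak nearest the 5′ end mostly lay by a transcription start. The 5′-most peak was within 500 nt of an annotated start in 6 of the 7 genes, at distances of 171 nt in NFKB1, 56 nt in RELA, 9 nt in NFKBIA, 6 nt in MAP3K14, 176 nt in NFATC1 and 74 nt in NFATC3. Of 5925 named genes with an annotated start, 80.4% met the same limit, so the members share this position with most genes of the list. NFKB2 was the exception, at 4970 nt from its nearest annotated start. Of the 18 member peaks, 4 began past the midpoint of the gene, 2 each in NFKB2 and RELA, against 38.5% of 13844 peaks in named genes. NFATC1 holds 7 of the 18 and had 0 there, so outside NFATC1 it was 4 of 11, near the share of the list. In NFKB1, MAP3K14, NFATC1 and NFATC3, the longest of the genes with peaks, no peak began there. Exons were not used here, so it was not determined which peaks fall in coding sequence, in a UTR or in an intron.

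Opposite-strand peaks overlapped 18.1% of all peaks but none of the 18 member peaks, and no member peak listed more than 1 gene identifier, as 8.62% of all peaks did. Each member gene had 1 identifier, and each of its peaks was a single uninterrupted block, as were all but 16 of the 18993 peaks. Widths ran from 25 nt to 17512 nt, with a median of 183.5 nt against 275 nt in the whole list.

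A list of 50 other genes of these pathways placed the members among their partners. Peaks were assigned to 33 of the 50, 85 in number, and 56 of the peaks (65.9%) were past 2-fold, beside the 56.6% of the whole list. Of the others, 15 had no peak within their bounds, and 2 had peaks there that were not assigned to them. The median log2 ratio over the 85 peaks was 1.28. With at least 0.5 RPM in input the count was 24 of 50 peaks, beside 44% of all such peaks, and below it 32 of 35, beside 75.6%. In 10 of the 85 peaks an opposite-strand peak overlapped, and without these 53 peaks were past 2-fold.

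The genes named from the list are the 3 highest and the 3 lowest by gene median among the 21 with a well-covered peak. The highest medians of the log2 ratio belonged to GSK3B and PPP3CC, both with 1.79, and TNIP1 with 1.64. GSK3B, a kinase that phosphorylates NFAT for export from the nucleus, had its strongest peak at chr3:120093916-120094440 with a RIP RPM of 10.7 and an input RPM of 1.76. Its peak nearest the 3′ end, at chr3:120002159-120002233, had nearly equal values, 1.53 RPM and 1.42 RPM. PPP3CC, a catalytic subunit of calcineurin, had 3.68 RPM against 0.96 RPM at chr8:22441169-22441443. TNIP1, which restrains NF-κB together with the ubiquitin-editing protein A20, had 7.39 RPM against 2.03 RPM at chr5:151056772-151064974. Of the peaks behind these medians, 3 of the 4 in TNIP1 and 1 of the 2 in PPP3CC had less than 0.5 RPM in input. By the best covered peak alone IKBKG, a subunit of the IκB kinase complex named after its values were seen, had a ratio of 3.70, above the 3.64 of TNIP1, and the genome holds a near-identical copy of IKBKG that could share its reads.

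The lowest medians belonged to NFKBIB with 0.31, ORAI1 with 0.44 and XPO1 with 0.53. NFKBIB encodes IκBβ, another inhibitor beside IκBα, and its main peak at chr19:38900062-38907444 had a RIP RPM of 29.9 and an input RPM of 19.5, a ratio of 1.53 where NFKBIA had 3.40. The other NFKBIB peak, of 25 nt, had 0.92 RPM in both and brought the gene median down. ORAI1, the pore of the calcium channel upstream of NFAT, had 46.5 RPM against 18.3 RPM in a wide peak at chr12:121626550-121641294, but 7.87 RPM against 8.66 RPM at chr12:121641370-121641469. XPO1, the export receptor that NFAT uses to leave the nucleus, had 3.93 RPM against 2.72 RPM at chr2:61522616-61533801. ORAI1 thus had peaks on both sides of equal RPM, and its best covered peak was past 2-fold with 2.54. By the best covered peak, PPP3R1 and CALM2, named after their values were seen, had ratios of 1.14 and 1.31, below XPO1 with 1.44.

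Some genes outside this rule were picked after their values were seen. MAP3K7, which encodes the kinase TAK1 upstream of the IκB kinases, had a RIP RPM of 2.79 and an input RPM of 0.15 in its single peak at chr6:90586860-90587072, a ratio of 18.6 that again rests on a low input. Of the other Rel family genes, RELB had 1 peak, with 8.62 RPM against 2.88 RPM. REL had 3 peaks with input RPM of at most 0.11, in or near the range up to 0.09 where 99.8% of all peaks were past 2-fold.

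**Figure D4:**
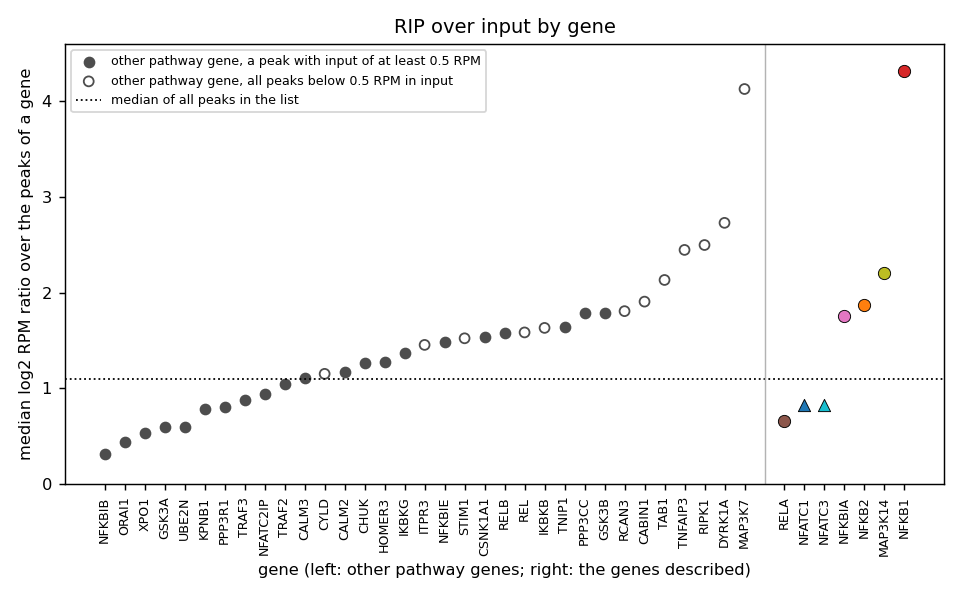
Median log2 ratio of PRMT5 RIP to input RPM (pseudocount 0.01) over the peaks of each gene, for 33 other NF-κB and NFAT pathway genes in ascending order on the left and the 7 member genes on the right, circles for NF-κB and triangles for NFAT. Filled grey points have a peak with at least 0.5 RPM in input, open points do not, and the dotted line is the median of all peaks, 1.10. RELA, NFATC1 and NFATC3 lie below that line and the other 4 member genes above it. Of these 4, NFKB1, NFKB2 and MAP3K14 have only peaks with less than 0.5 RPM in input, which the member points do not mark.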

How the data were processed

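RIP-seq of PRMT5 and matched input were made from PHA-stimulated Jurkat cells, 2 libraries each. The submitters' processing notes name fastp, HISAT2 and hg38, without versions; the peak caller, annotation and pooling are not given in the sources used here. The authors deposited 1 peak list with pooled RPM values per peak, rounded to 0.01, whose denominator is not stated. Low input RPM values take every step of 0.01, so whole reads and depth were not recovered. The list also holds the caller's log2 fold change, p-value, FDR and score, which were not used.

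Peak starts were raised by 1 to count from 1. Where a peak lists several identifiers, the one listed first was used. Identifiers were named by the study's supplementary peak table (850, from its part used here) or by the 1 RefSeq gene (GRCh38.p14) on the same strand under all their peaks (6374), where needed adding genes whose strand was not given. Overlapping genes stay uncertain. Ratios of RPM were taken as deposited, and log2 ratios with a pseudocount of 0.01. A 2-fold ratio was the call, shown beside the same share over all peaks. No test was made from the RPM values, because each group has 1 pooled value. The members, the 50-gene list and the alternatives were chosen with earlier results of these data known. Named were all 9 members and, of the list, the 3 highest and 3 lowest gene medians with a peak of at least 0.5 RPM in input. The κB consensus and the limit of 500 nt were chosen after the peaks were seen. Counting was tested on simulated data. Python 3.11.15, pandas 2.3.3, numpy 2.4.6 and matplotlib 3.10.9 were used.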

Additional observations from a re-analysis of the deposited data

How the results depend on the processing

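No paired analysis was possible because the list holds 1 pooled value for each group, and fits that leave out a replicate were not possible either. Counting every listed identifier, leaving out overlaps with the opposite strand, and the lowest and highest ratios that rounding allows left the counts of genes, peaks and peaks past 2-fold at 7, 18 and 9. Requiring at least 0.5 RPM in input, or at least 1 RPM in PRMT5 RIP, left 4 genes and 7 peaks, of which 1 was past 2-fold, with a median log2 ratio of 0.83 in place of 1.00. In the whole list, the same limit on input gave 44% past 2-fold and a median of 0.89, in place of 56.6% and 1.10. Either limit on width (at least 50 nt, at most 5000 nt) kept 16 member peaks and gave a median of 1.15. Without NFATC1, a choice made after the data were seen, 11 peaks remained, 7 of them past 2-fold, with a median of 1.60. The median was 0.91 and 0.44 with pseudocounts of 0.1 and 1. Over genes it was 1.76, both by summed RPM and by the median peak. The same value over all genes of the list was not computed. In the 50-gene list, peaks past 2-fold fell from 56 of 85 (65.9%) to 24 of 50 (48%) with at least 0.5 RPM in input. Among all peaks, that limit lowered the share from 56.6% to 44%. The log2 ratios of the 7 member genes were above 0 under their 4 alternatives, which follows from each member peak having more RPM after PRMT5 RIP than before.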
